A study of Homo sapiens with 24 samples.

Results

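The transcripts of 8 receptor tyrosine kinases and 2 insulin receptor substrate adaptors were followed in pancreatic tumors after dosing with IK-595. The genes were MET, AXL, IGF1R, INSR, FGFR2, FGFR3, FGFR4, DDR1, IRS1 and IRS2, taken by name from a list of kinase and adaptor genes linked to adaptive resistance. All 10 were found once among the 60230 genes measured, and all 10 were among the 18242 genes with enough reads to test. The tumors were xenografts of AsPC-1, an established line of human pancreatic ductal adenocarcinoma, carried in mice and read by bulk polyA RNA sequencing. IK-595 is described by the submitters as a molecular glue of MEK and RAF, the kinases that carry the signal from RAS to ERK. Each animal received 3 oral doses, 1 every other day, of either IK-595 at 6 mg/kg or of vehicle (5% DMSO and 95% polyethylene glycol 400). Tumors of the IK-595 animals were taken 2, 4, 8, 24 or 48 h after the last dose, and those of the vehicle animals at 2 h. Each of the 6 groups has 4 animals. Vehicle was sampled at 2 h alone, so each later time is set against a control of another time, and the 5 comparisons with vehicle share its 4 tumors. All tumors come from 1 cell line, and the labels used here name no strain, sex or age of the animals.

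Receptor tyrosine kinases span the cell membrane, bind a ligand outside the cell and phosphorylate tyrosines inside it, from which the RAS-ERK and PI3K-AKT chains start. MET is the receptor for hepatocyte growth factor, AXL for GAS6, IGF1R and INSR for the insulin-like growth factors and insulin, the FGFR family for fibroblast growth factors, and DDR1 for collagen. IRS1 and IRS2 have no kinase activity: they dock on the activated insulin and IGF1 receptors and recruit PI3K. In tumors with an active RAS-ERK pathway these genes are studied because signalling from other receptors can sustain growth when ERK signalling is blocked.

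The stretch before the start of 4 genes is printed because these are the members that fell (MET, AXL, IRS1) or rose (INSR) against vehicle at 8 h with a call that held under each of 20 alternative settings. Each is the 250 bases before the RefSeq start on the gene's own strand, from RefSeq on GRCh38.p14, with the first listed start used for AXL. Capitals mark matches to the motifs named after the sequences.
MET, chr7:116671946-116672195, plus strand: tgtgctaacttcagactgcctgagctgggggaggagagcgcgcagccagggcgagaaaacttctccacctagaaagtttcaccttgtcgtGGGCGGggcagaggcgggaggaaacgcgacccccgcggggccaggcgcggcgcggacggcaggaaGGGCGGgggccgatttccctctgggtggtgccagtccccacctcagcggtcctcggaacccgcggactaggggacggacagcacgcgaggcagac
AXL, chr19:41218973-41219222, plus strand: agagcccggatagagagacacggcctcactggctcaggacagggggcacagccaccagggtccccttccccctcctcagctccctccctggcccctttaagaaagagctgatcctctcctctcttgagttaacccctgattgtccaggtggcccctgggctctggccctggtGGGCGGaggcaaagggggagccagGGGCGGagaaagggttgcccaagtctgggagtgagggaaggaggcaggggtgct
IRS1, chr2:226799821-226800070, minus strand: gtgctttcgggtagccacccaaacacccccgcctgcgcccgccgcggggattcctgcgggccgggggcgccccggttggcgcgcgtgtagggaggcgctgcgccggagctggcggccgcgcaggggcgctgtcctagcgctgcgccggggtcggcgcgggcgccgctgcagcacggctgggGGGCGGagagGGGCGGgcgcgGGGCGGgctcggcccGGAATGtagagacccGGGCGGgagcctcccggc
INSR, chr19:7294415-7294664, minus strand: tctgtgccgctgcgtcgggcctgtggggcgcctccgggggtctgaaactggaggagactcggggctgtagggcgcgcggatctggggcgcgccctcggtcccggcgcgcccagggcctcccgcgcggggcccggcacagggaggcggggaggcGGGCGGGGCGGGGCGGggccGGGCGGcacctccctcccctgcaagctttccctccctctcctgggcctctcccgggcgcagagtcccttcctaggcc
Searched on both strands were GGGCGG (GC box), CACGTG (E-box), TGANTCA (AP-1), CCGGAAG (ETS), GTAAACA (forkhead) and GGAATG (TEAD), and matches may overlap. The GC box letters occur 2 times before MET, 2 times before AXL, 4 times before IRS1 and 4 times before INSR, and they are held by 42.6% of the 35116 RefSeq windows of the same length. IRS1 also holds 1 match to GGAATG, found in 11.9% of all windows. None of the 4 windows holds the AP-1, ETS, forkhead or E-box letters, which 6.57%, 8.52%, 2.98% and 6.34% of all windows hold. All 10 members matched the RefSeq table, with 23 windows in all. GC content was 68.4% before MET, 64.4% before AXL, 80.8% before IRS1 and 78.4% before INSR, against 57.2% over all windows.

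In the GENCODE release 29 annotation on GRCh38 the members lie on 9 chromosomes, AXL and INSR sharing chromosome 19. MET spans chr7:116672390-116798386, AXL chr19:41219203-41261766, IRS1 chr2:226731317-226799759, IRS2 chr13:109752698-109786568, INSR chr19:7112255-7294034 and IGF1R chr15:98648539-98964530. FGFR2 spans chr10:121478334-121598458, FGFR3 chr4:1793293-1808872, FGFR4 chr5:177086886-177098144 and DDR1 chr6:30876421-30900156. Antisense genes overlap AXL, IGF1R and IRS2, and the largest count that any of them reached in a tumor was 11, against at least 154 for each of these 3 members.

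Depth was 10.52 to 20.64 M counts per tumor. The labelled tissue carried its epithelial markers: EPCAM, KRT8, KRT18 and KRT19 had at least 7348 counts in every tumor, although KRT7 stayed at 2.84 to 10.7 TPM. TPM, the deposited transcript level, is scaled for gene length and to the same total in every tumor. Summed over 12 listed epithelial markers, vehicle tumors held 10100 to 12300 TPM, the 8 h tumors 6960 to 9160 TPM and the 48 h tumors 12900 to 15800 TPM. At 8 h, 3 of the 12 rose and 2 fell, against 20.6% and 23.7% of all genes. At 48 h, 6 rose and 0 fell, against 5.52% and 4.46%. Their median log2 fold change was -0.37 at 8 h and 0.82 at 48 h. What this means for the members was not tested. Of 10 genes driven by the ERK pathway, the number that fell was 8, 9, 10, 6 and 2 in order of time. Their mean level went from 6.52 ± 0.04 log2 CPM (counts scaled to library size; SD, n = 4) in vehicle tumors to 4.11 ± 0.20 at 2 h, 2.96 ± 0.42 at 4 h and 2.74 ± 0.52 at 8 h, and to 5.56 ± 0.23 at 24 h and 6.15 ± 0.18 at 48 h. Mitochondrial transcripts took 18.7% to 24.4% of TPM in vehicle tumors, 36.6% to 45.3% at 8 h and 53.1% in 24 h tumor 1, the highest of all. Every other TPM value in such a tumor is pressed down, so differences are given as log2 fold changes from counts scaled by TMM, which can differ from the ratio of TPM values. With mitochondrial genes taken out of the table, 32 of the 33 calls on members described here were kept, the exception being INSR at 48 h.

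In vehicle tumors the collagen receptor DDR1 had the highest level, 175 ± 22.5 TPM (SD, n = 4), followed by MET at 136 ± 12.6 TPM. AXL (63.4 ± 10.8 TPM) and FGFR4 (61.8 ± 21.0 TPM) came next and overlapped. IRS2 (11.5 ± 3.19 TPM), INSR (10.9 ± 2.01 TPM) and IRS1 (9.17 ± 1.88 TPM) formed a lower group whose tumors overlapped. IGF1R (5.50 ± 0.586 TPM) and FGFR3 (5.34 ± 1.46 TPM) overlapped below them, and FGFR2 was lowest at 0.308 ± 0.201 TPM.

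**Figure D1:**
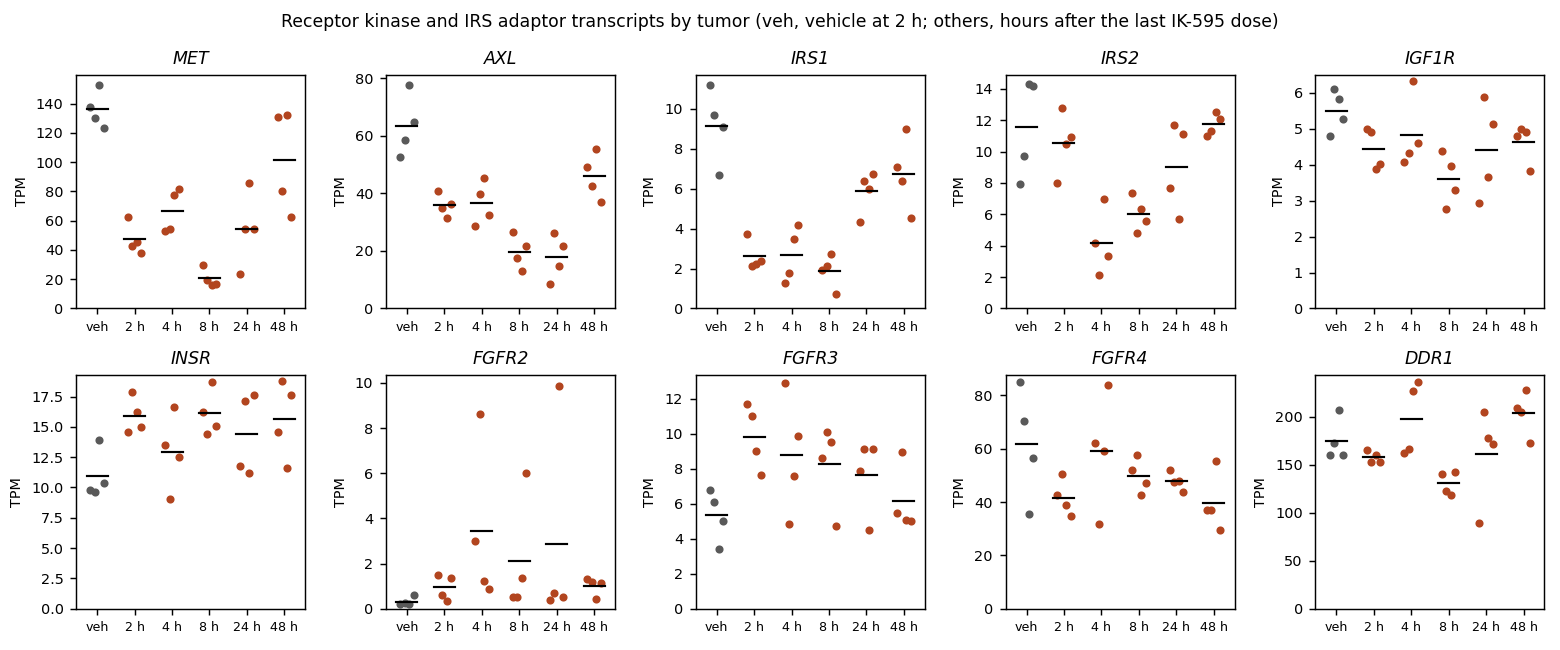
TPM of the 10 members in each of 24 tumors (points) with the mean of each group of 4 (bar); grey is vehicle at 2 h and orange IK-595 at 2 to 48 h after the last dose, and each panel has its own axis from 0. MET falls from 123 to 153 TPM in vehicle to 15.9 to 29.8 TPM at 8 h, while INSR is higher at 8 h and FGFR2 rests on single high tumors.

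Most of the members that changed against vehicle fell, with falls called at 2, 4, 8 and 24 h. MET and IRS1 had their lowest estimates at 8 h, but IRS1 did not differ there beyond the threshold from 4 h (-0.28 ± 0.24, adjusted p = 0.408). AXL had its lowest at 24 h (-1.76 ± 0.21), which did not differ beyond the threshold from 8 h (adjusted p = 0.263). IRS2 did not pass at 2 h. The ERK-driven genes had a median log2 fold change of -3.64 at both 4 h and 8 h. Whether the members follow these genes in time was not tested. At 2 h, 3 of 10 members fell and 1 rose, against 13.6% and 13.4% of all genes tested. At 4 h, 4 fell and 1 rose, against 8.39% and 6.74% of all genes. The largest number was at 8 h, where 5 fell and 2 rose, against 23.7% and 20.6% of all genes. At 24 h, 3 fell and 0 rose, against 13.8% and 13.7%. At 48 h, 0 members were called lower and 1 (INSR) was called higher, against 4.46% and 5.52% of all genes. A member or gene is called here when its edgeR quasi-likelihood test gives a Benjamini-Hochberg adjusted p under 0.05 over all genes tested. The median log2 fold change of the 10 members was -0.08, -0.20, -0.29, -0.30 and -0.02 in order of time, and that of all genes tested was 0.053, 0.026, 0.066, 0.064 and -0.012. A test of any change over the 6 groups called 6 of 10 members, against 49.8% of all genes: IRS1 (adjusted p = 1.47e-07), MET (9.76e-07), AXL (6.57e-06), IRS2 (0.000539), INSR (0.0126) and DDR1 (0.0339).

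**Figure D2:**
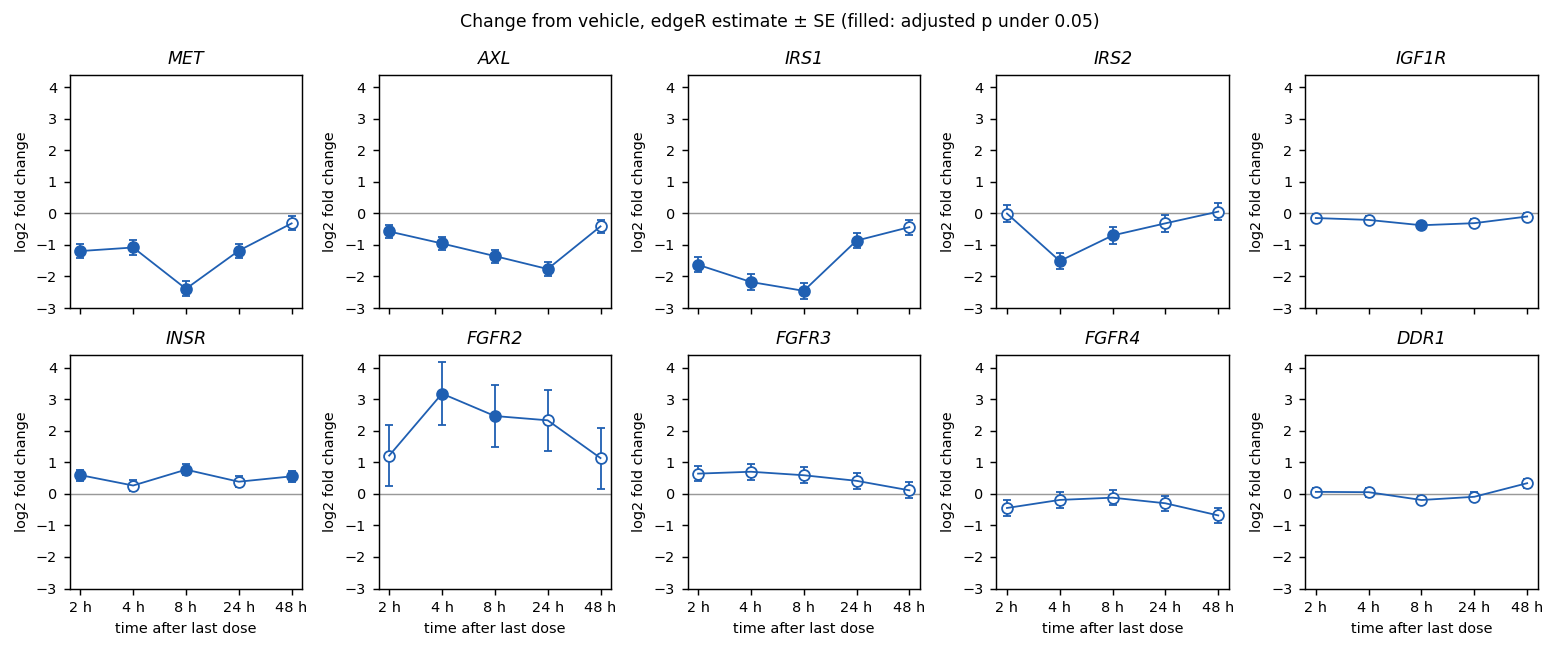
Log2 fold change from vehicle (points, edgeR estimate; bars, SE) for each member at 2, 4, 8, 24 and 48 h after the last IK-595 dose, on 1 common axis, with filled points for an adjusted p under 0.05. MET, AXL and IRS1 lie below 0 and are called from 2 h to 24 h, INSR lies above 0, and the wide bars of FGFR2 show the largest SE of the 10 members.

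MET, which drives cell motility and growth on binding hepatocyte growth factor, fell to 0.191 times the vehicle level at 8 h, and at 48 h 2 of 4 tumors were within the range of the vehicle tumors. The vehicle tumors held 138, 130, 153 and 123 TPM, and the 2 h tumors 62.8, 42.6, 45.4 and 37.9 TPM. At 4 h the values were 52.8, 54.1, 77.7 and 81.6 TPM, and at 8 h they were 29.8, 19.6, 15.9 and 16.9 TPM. All 12 of these IK-595 tumors lay below every vehicle tumor. At 24 h the tumors held 23.5, 54.5, 85.7 and 54.4 TPM, and at 48 h 131, 80.5, 132 and 62.5 TPM, where they overlapped the vehicle tumors. The log2 fold change was -1.20 ± 0.23 (SE, adjusted p = 0.00075) at 2 h, -1.08 ± 0.23 (adjusted p = 0.00173) at 4 h, -2.39 ± 0.24 (adjusted p = 1.03e-07) at 8 h and -1.18 ± 0.23 (adjusted p = 0.000646) at 24 h. At 48 h it was -0.32 ± 0.22 (adjusted p = 0.435). The time course was not a single fall: the 4 h tumors did not differ beyond the threshold from those at 2 h (0.11 ± 0.22, adjusted p = 0.75), and the 8 h tumors were then lower than those at 4 h (-1.31 ± 0.23, adjusted p = 0.00126) with no overlap.

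MST1R, the receptor for macrophage-stimulating protein and the closest relative of MET, stood at 114 ± 14.0 TPM in vehicle tumors and did not pass at 2 h (-0.10 ± 0.15, adjusted p = 0.658). It fell at 4 h (-0.58 ± 0.15, adjusted p = 0.0105) and 8 h (-0.67 ± 0.15, adjusted p = 0.00121). At 48 h it was above vehicle (0.48 ± 0.15, adjusted p = 0.0447), which no longer passed when any 1 of the 4 vehicle tumors, or 48 h tumor 3 or 4, was left out (0.40 to 0.52, adjusted p from 0.0557 to 0.135). HGF, the ligand of MET, was near the floor, at 0.228 to 0.967 TPM in vehicle tumors, and its rise at 4 h (1.85 ± 0.62, adjusted p = 0.0466) was 0.74 (adjusted p = 0.43) without 4 h tumor 2.

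AXL, a receptor of the TAM family that is activated by GAS6, fell at 2, 4, 8 and 24 h, with its lowest estimate at 24 h where MET had its lowest at 8 h. Vehicle tumors held 52.5, 58.6, 77.8 and 64.7 TPM. The 2 h tumors held 40.8, 34.9, 31.4 and 36.4 TPM and the 4 h tumors 28.7, 39.9, 45.4 and 32.5 TPM. At 8 h the values were 26.4, 17.5, 12.9 and 21.6 TPM, and at 24 h they were 8.42, 26.3, 14.6 and 21.8 TPM. Every tumor from 2 h to 24 h was below every vehicle tumor, and the 48 h tumors (49.1, 42.4, 55.3 and 37.1 TPM) overlapped them. The log2 fold change was -0.57 ± 0.20 (adjusted p = 0.0407) at 2 h, -0.95 ± 0.21 (adjusted p = 0.00228) at 4 h, -1.35 ± 0.21 (adjusted p = 2.25e-05) at 8 h, -1.76 ± 0.21 (adjusted p = 7.36e-06) at 24 h and -0.41 ± 0.20 (adjusted p = 0.229) at 48 h. The call at 2 h was lost on leaving out any 1 of vehicle tumors 2, 3 and 4 or of the 2 h tumors, with log2 fold changes of -0.61 to -0.48 and adjusted p from 0.0629 to 0.116. On the TPM scale the 4 h call was lost (-0.78 with a pseudocount of 1, adjusted p = 0.0579). The 24 h tumors did not differ beyond the threshold from the 8 h tumors (-0.41 ± 0.21, adjusted p = 0.263). In TPM, MET was 1.90 to 2.63 times AXL in vehicle tumors, 0.785 to 1.23 times at 8 h and 2.07 to 5.85 times at 24 h.

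GAS6, the ligand of AXL, rose at the times at which its receptor fell. Vehicle tumors held 9.97, 9.65, 7.02 and 8.82 TPM, the 8 h tumors 46.2, 43.8, 77.9 and 48.6 TPM and the 24 h tumors 37.9, 63.9, 35.1 and 54.5 TPM. The 4 h tumors held 31.5, 63.3, 26.2 and 25.4 TPM, the 63.3 TPM of 4 h tumor 2 coming from 492 counts. GAS6 rose at all 5 times, by 1.65 ± 0.20 (adjusted p = 1.1e-05) at 2 h, 1.53 ± 0.20 (adjusted p = 9.28e-06) at 4 h, 2.78 ± 0.21 (adjusted p = 2.32e-09) at 8 h, 2.47 ± 0.21 (adjusted p = 8.55e-08) at 24 h and 1.18 ± 0.20 (adjusted p = 0.000575) at 48 h. Each of the 5 calls held under all 20 alternative settings, including a fit with the fibroblast marker level as a covariate. MERTK, a second TAM receptor, also rose, at 4 h (1.04 ± 0.24, adjusted p = 0.00379), 8 h (0.84 ± 0.24, adjusted p = 0.00628) and 24 h (0.76 ± 0.24, adjusted p = 0.0205), from 2.50 ± 0.826 TPM in vehicle tumors to 4.98 ± 0.881 TPM at 4 h. On the TPM scale the MERTK calls were lost, and at 24 h also without vehicle tumor 3 (0.67, adjusted p = 0.062) or 4 (0.71, adjusted p = 0.0506). TYRO3, the remaining TAM receptor, was called at no time, and was nearest at 8 h (-0.46 ± 0.20, adjusted p = 0.0596), where it passed without 8 h tumor 1 (-0.58, adjusted p = 0.0342).

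**Figure D3:**
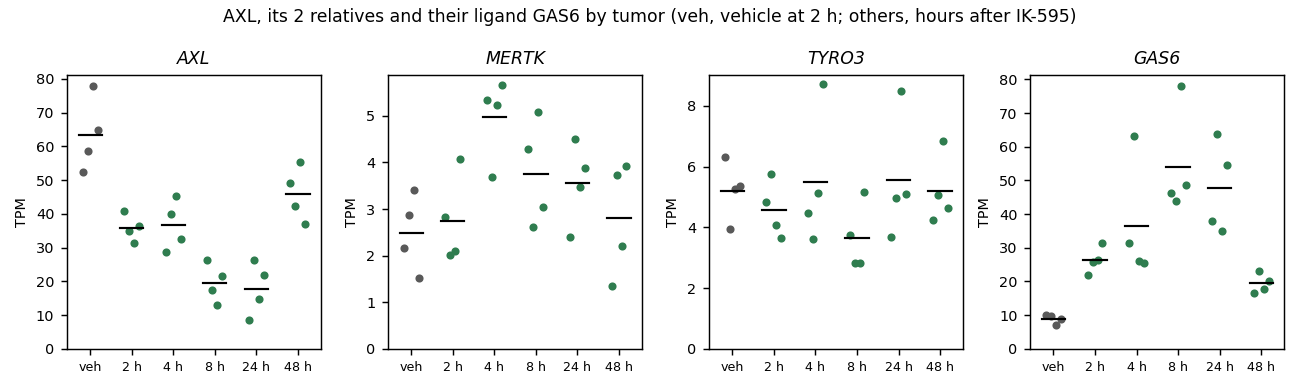
TPM of AXL, its relatives MERTK and TYRO3 and their ligand GAS6 in each of 24 tumors (points) with group means (bars); grey is vehicle at 2 h and green IK-595. AXL is lowest at 8 h and 24 h (8.42 to 26.4 TPM), when GAS6 is at 35.1 to 77.9 TPM, a range that 4 h tumor 2 (63.3 TPM) also reaches.

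INSR, the insulin receptor, was the member that rose at 8 h without resting on 1 tumor. Vehicle tumors held 9.82, 9.60, 13.9 and 10.4 TPM, the 2 h tumors 14.6, 17.9, 16.2 and 15.0 TPM and the 8 h tumors 16.2, 14.4, 18.7 and 15.1 TPM. At 2 h and 8 h every IK-595 tumor was above every vehicle tumor. The 4 h tumors held 13.5, 9.05, 16.6 and 12.5 TPM, the 24 h tumors 11.8, 17.1, 11.2 and 17.6 TPM and the 48 h tumors 14.6, 18.8, 11.6 and 17.6 TPM, all overlapping vehicle in TPM. In log2 CPM the 48 h tumors (6.42 to 6.99) lay above the vehicle tumors (5.91 to 6.39). The log2 fold change was 0.59 ± 0.18 (adjusted p = 0.0163) at 2 h, 0.77 ± 0.18 (adjusted p = 0.00131) at 8 h and 0.56 ± 0.18 (adjusted p = 0.0466) at 48 h. It was 0.27 ± 0.18 (adjusted p = 0.332) at 4 h and 0.39 ± 0.18 (adjusted p = 0.106) at 24 h, where it passed without 24 h tumor 3 (0.50, adjusted p = 0.033). With the fibroblast marker covariate INSR was called higher at 4 h (0.47, adjusted p = 0.0222) and at 24 h (0.44, adjusted p = 0.0133). The 2 h call was lost without vehicle tumor 2 (0.52, adjusted p = 0.0556) or 2 h tumor 2 (0.53, adjusted p = 0.0556), and the 48 h call on leaving out any 1 of vehicle tumors 1, 2 and 4 and 48 h tumors 2 and 4 (0.45 to 0.59, adjusted p from 0.0575 to 0.183).

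IGF1R, the receptor for the insulin-like growth factors, moved little and downward. Its tumors held 4.79, 6.10, 5.84 and 5.26 TPM with vehicle and 4.37, 2.77, 3.95 and 3.29 TPM at 8 h, without overlap. The 8 h fall of -0.38 ± 0.12 (adjusted p = 0.0126) was its 1 call against vehicle, and upper-quartile scaling, which raises the median of all genes at 8 h to 0.208, lost it (-0.24, adjusted p = 0.104). At 24 h the estimate was -0.31 ± 0.12 (adjusted p = 0.0522) and passed without 24 h tumor 2 (-0.41, adjusted p = 0.018). INSR was 1.57 to 2.38 times IGF1R in TPM in vehicle tumors, 2.93 to 4.17 times at 2 h, 3.71 to 5.19 times at 8 h and 2.91 to 4.00 times at 24 h, without overlap. It overlapped vehicle at 4 h (2.09 to 3.30 times) and at 48 h (2.36 to 4.60 times). INSRR, the orphan receptor of the family, had at most 2 counts in a tumor and was not tested. Of the ligands, IGF2 was called at no time, and IGF1, a stromal growth factor in most tissues, was higher at 4 h (2.78 ± 0.84, adjusted p = 0.0276). That IGF1 call was lost without 4 h tumor 2 (1.13, adjusted p = 0.316) or without vehicle tumor 1, 3 or 4 (2.68 to 2.80, adjusted p from 0.072 to 0.0781).

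IRS1, which couples these receptors to PI3K, had the widest swing of the 10 members, with group means spanning 2.52 on the log2 CPM scale. Vehicle tumors held 11.2, 9.72, 6.68 and 9.07 TPM. By 2 h the values were 3.71, 2.11, 2.24 and 2.37 TPM, at 4 h 1.27, 1.76, 3.47 and 4.19 TPM and at 8 h 1.91, 2.13, 2.74 and 0.720 TPM, all below every vehicle tumor. The 24 h tumors had come up to 4.35, 6.41, 5.97 and 6.72 TPM and the 48 h tumors to 7.11, 6.38, 8.97 and 4.52 TPM. The log2 fold change was -1.63 ± 0.24 (adjusted p = 7.92e-05) at 2 h, -2.18 ± 0.25 (adjusted p = 1.57e-06) at 4 h, -2.46 ± 0.25 (adjusted p = 1.54e-07) at 8 h and -0.86 ± 0.24 (adjusted p = 0.0092) at 24 h. At 48 h it was -0.44 ± 0.23 (adjusted p = 0.275). The 24 h call was lost on the TPM scale (-0.56 with a pseudocount of 1, adjusted p = 0.145). From 8 h to 24 h IRS1 rose by 1.59 ± 0.25 (adjusted p = 0.00021), with no overlap between the tumors.

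IRS2, the second adaptor, did not pass at 2 h, fell most at 4 h, and did not pass at 24 h or 48 h. Vehicle tumors held 7.96, 9.69, 14.3 and 14.2 TPM and the 2 h tumors 7.97, 12.8, 10.5 and 10.9 TPM, which overlap. The 4 h tumors held 4.20, 2.16, 6.99 and 3.36 TPM, below every vehicle and every 2 h tumor. Values were 7.38, 4.84, 6.33 and 5.56 TPM at 8 h, 7.70, 11.7, 5.67 and 11.1 TPM at 24 h and 11.0, 11.3, 12.5 and 12.1 TPM at 48 h. Against vehicle the log2 fold change was -0.01 ± 0.26 (adjusted p = 0.99) at 2 h, -1.51 ± 0.27 (adjusted p = 0.000394) at 4 h and -0.70 ± 0.26 (adjusted p = 0.0349) at 8 h. It was -0.32 ± 0.26 (adjusted p = 0.391) at 24 h and 0.06 ± 0.26 (adjusted p = 0.939) at 48 h. The 8 h call was lost on leaving out any 1 of vehicle tumors 3 and 4 and 8 h tumors 2, 3 and 4 (-0.73 to -0.55, adjusted p from 0.0558 to 0.112). IRS2 was 0.711 to 2.13 times IRS1 in TPM in vehicle tumors, 2.15 to 6.05 times at 2 h and 0.803 to 3.30 times at 4 h. It was 2.27 to 7.72 times at 8 h, again above every vehicle tumor, and 0.949 to 1.82 times at 24 h and 1.39 to 2.67 times at 48 h, overlapping them. IRS4, another adaptor of the family, had at most 1 count in a tumor and was not tested.

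FGFR2, a fibroblast growth factor receptor of epithelial and stromal cells, rose in the fit at 4 h and 8 h, but the size rested on 1 tumor in each group. Vehicle tumors held 0.202, 0.233, 0.189 and 0.609 TPM. The 4 h tumors held 2.98, 8.64, 1.22 and 0.862 TPM, the 8 h tumors 0.523, 0.507, 1.35 and 6.01 TPM and the 24 h tumors 0.383, 0.700, 9.87 and 0.504 TPM. At 2 h the values were 1.49, 0.621, 0.352 and 1.35 TPM and at 48 h 1.33, 1.18, 0.413 and 1.16 TPM. The 4 h tumors were all above the vehicle tumors, and the other groups overlapped them. The log2 fold change was 3.18 ± 0.995 (adjusted p = 0.0347) at 4 h and 2.47 ± 0.98 (adjusted p = 0.0467) at 8 h. Without 4 h tumor 2 the first was 1.65 (adjusted p = 0.248), and without 8 h tumor 4 the second was 1.01 (adjusted p = 0.405). Leaving out vehicle tumor 1, 2 or 3 also lost both calls (3.06 to 3.16 at 4 h, adjusted p from 0.0861 to 0.0943; 2.33 to 2.43 at 8 h, adjusted p from 0.0971 to 0.108). FGFR2 counts ran from 12 to 259 per tumor.

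In the 4 h, 8 h and 24 h groups the tumor highest in FGFR2 was also the one highest in stromal markers. The summed level of 16 fibroblast and pericyte markers, among them COL1A1, COL3A1 and PDGFRB, was 729 to 1540 TPM in vehicle tumors. It was 19400 TPM in 4 h tumor 2 against 728 to 2220 TPM in the other 4 h tumors, 3080 TPM in 8 h tumor 4 against 776 to 1830 TPM, and 2980 TPM in 24 h tumor 3 against 918 to 1480 TPM. In 2 h tumor 1 it was 3380 TPM, with 1.49 TPM of FGFR2, the highest of the 2 h group. Of the 16 markers, 4 rose at 4 h and 0 rose at the other times. Their part in the FGFR2 result was not tested beyond 1 fit. Its covariate was the mean log2 CPM of 14 of the markers, leaving out those that are receptor kinases. In that fit FGFR2 at 4 h was 1.48 (adjusted p = 0.214), no longer called, and at 8 h it was 2.01 (adjusted p = 0.0333), still called. In bulk tumors a change in the number of cells of a type and a change in RNA per cell cannot be told apart. The host cells of these xenografts are mouse cells, and it is not stated whether mouse reads were removed. Counts for the marker genes, FGFR2, HGF, GAS6 and IGF1 may thus include mouse reads, which was not tested. Endothelial markers were far lower, at 4.06 to 48.1 TPM summed over 10 genes, and the fat marker ADIPOQ had 0 counts in all tumors. The endothelial sum was also highest of its group in 2 h tumor 1 (14.2 TPM), 4 h tumor 2 (48.1 TPM), 8 h tumor 4 (17.6 TPM) and 24 h tumor 3 (18.2 TPM). The 8 myeloid markers summed to 503 to 781 TPM in vehicle tumors, 218 to 314 TPM at 8 h and 166 to 786 TPM at 24 h, most of it from LYZ, and ADGRE1 was the 1 of the 8 with 0 counts throughout. Which cells gave the LYZ reads was not tested, so the sum is no measure of myeloid cells. At 8 h, 1 of the 7 tested rose and 2 fell. The sum of 11 muscle, fat and red cell markers was highest in 2 h tumor 1 (2440 TPM), the tumor already named for its fibroblast markers, and also stood out in 8 h tumor 2 (1770 TPM), 24 h tumor 4 (1760 TPM) and 4 h tumor 4 (1300 TPM).

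**Figure D4:**
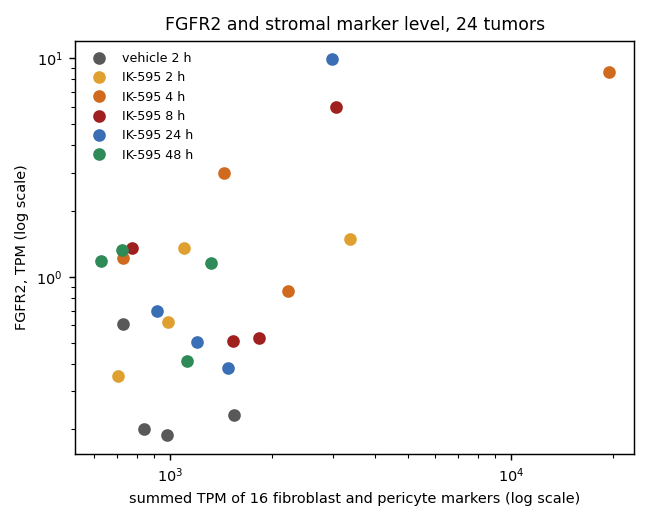
FGFR2 level in TPM against the summed TPM of 16 fibroblast and pericyte markers in each of 24 tumors, both on log axes, colored by group. The 3 tumors with the most FGFR2 (6.01 to 9.87 TPM) have a marker sum of 2980 TPM or more.

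FGFR3 and FGFR4, the other fibroblast growth factor receptors of the set, passed no comparison with vehicle. FGFR3 tumors held 6.78, 6.11, 3.44 and 5.02 TPM with vehicle and 11.7, 11.0, 9.02 and 7.66 TPM at 2 h, where all 4 were higher. Its log2 fold change was 0.64 ± 0.25 (adjusted p = 0.0589) at 2 h, 0.70 ± 0.25 (adjusted p = 0.0599) at 4 h and 0.59 ± 0.25 (adjusted p = 0.0587) at 8 h. With DESeq2 it passed at all 3 times (adjusted p of 0.0434, 0.0304 and 0.0432). The fibroblast marker covariate also gave calls at all 3 (0.62, 0.89 and 0.64, with adjusted p of 0.0361, 0.00998 and 0.0219). At 2 h, limma-voom, upper-quartile scaling, the stricter filter, both TPM pseudocounts and the fit of only 2 groups called it too. RLE scaling, mitochondrial genes removed, no filter and the replicate block did not. At 4 h RLE scaling alone of these called it. At 8 h all did but mitochondrial genes removed, no filter, TPM and the replicate block. The 3 tumors highest in FGFR2 were each the lowest of their group in FGFR3: 4.83 TPM in 4 h tumor 2, 4.75 TPM in 8 h tumor 4 and 4.51 TPM in 24 h tumor 3. Without 4 h tumor 2 it passed at 4 h (0.90, adjusted p = 0.0103), as it did without vehicle tumor 1 (0.83, adjusted p = 0.0475); at 8 h it passed without 8 h tumor 4 (0.68, adjusted p = 0.0483) or vehicle tumor 1 (0.71, adjusted p = 0.0427). FGFR4, a receptor for FGF19 in the liver, varied widely with vehicle (84.9, 70.4, 35.5 and 56.4 TPM) and overlapped at every time. It was lowest at 48 h (37.0, 37.0, 55.5 and 29.4 TPM; -0.68 ± 0.24, adjusted p = 0.0793), and passed there with DESeq2 (adjusted p = 0.0468), and in edgeR without vehicle tumor 3 (-0.86, adjusted p = 0.0221) or 48 h tumor 3 (-0.85, adjusted p = 0.0391). FGFR1, the other receptor kinase of the family, passed no comparison with vehicle and was highest in 4 h tumor 2 (129 TPM, against 22.5 to 49.8 TPM in the other 4 h tumors). With the fibroblast marker covariate it was called lower at 4 h (-0.47, adjusted p = 0.0122), 8 h (-0.34, adjusted p = 0.0209) and 24 h (-0.36, adjusted p = 0.0231). Of the ligands, FGF2 fell by 2.17 ± 0.24 on the log2 scale at 8 h (adjusted p = 4.12e-07), from 9.97 ± 0.878 TPM in vehicle tumors to 1.61 ± 0.488 TPM.

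DDR1, the collagen receptor that was the most abundant member, passed no comparison with vehicle. Vehicle tumors held 160, 172, 207 and 160 TPM, the 8 h tumors 140, 123, 118 and 142 TPM and the 48 h tumors 209, 205, 228 and 172 TPM. The log2 fold change was -0.19 ± 0.14 (adjusted p = 0.259) at 8 h and 0.34 ± 0.14 (adjusted p = 0.127) at 48 h. The 48 h tumors were above the 8 h tumors with no overlap (0.53 ± 0.14, adjusted p = 0.00569). In 24 h tumor 1, the one richest in mitochondrial transcripts, DDR1 was 88.9 TPM, against 171 to 205 TPM in the other 24 h tumors. DDR2, the second collagen receptor, was called at no time (1.24 ± 0.56 at 4 h, adjusted p = 0.142).

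The comparisons between IK-595 times placed the return of the members. From 2 h to 4 h, 1 member fell (IRS2) and 0 rose, against 9.0% and 6.89% of all genes. From 4 h to 8 h, 1 fell (MET) and 2 rose (INSR, 0.50 ± 0.18, adjusted p = 0.0377; IRS2, 0.81 ± 0.27, adjusted p = 0.0281), against 15.5% and 11.6%. From 8 h to 24 h, 2 rose (IRS1; MET, 1.21 ± 0.23, adjusted p = 0.00158) and 0 fell, against 5.3% and 1.58%. From 24 h to 48 h, 2 rose (AXL, 1.35 ± 0.21, adjusted p = 0.000791; MET, 0.86 ± 0.23, adjusted p = 0.0306) and 0 fell, against 2.47% and 1.6%. Between 8 h and 48 h, 5 rose and 0 fell, against 17.1% and 11.3% of all genes. These were IRS1 (2.02 ± 0.25, adjusted p = 3.48e-06), MET (2.07 ± 0.23, adjusted p = 1.11e-06), AXL (0.94 ± 0.21, adjusted p = 0.00167), IRS2 (0.76 ± 0.26, adjusted p = 0.0357) and DDR1. The MET call from 24 h to 48 h was lost without 24 h tumor 1, 2 or 4 or 48 h tumor 1 or 3 (0.71 to 0.85, adjusted p from 0.0706 to 0.125). The INSR call from 4 h to 8 h was lost without 4 h tumor 2 or 4 or 8 h tumor 3 or 4 (0.35 to 0.52, adjusted p from 0.0564 to 0.181). The IRS2 call over that interval was lost without 4 h tumor 1, 2 or 4 or 8 h tumor 1 or 3 (0.61 to 0.79, adjusted p from 0.0523 to 0.0918). The IRS2 call from 8 h to 48 h was lost without 8 h tumor 2, 3 or 4 or any 1 of the 48 h tumors (0.70 to 0.80, adjusted p from 0.0537 to 0.088). DDR1 from 24 h to 48 h (0.43 ± 0.14, adjusted p = 0.0746) passed without 24 h tumor 2 (0.54, adjusted p = 0.0405). From 8 h to 48 h, IGF1R passed without 8 h tumor 1 (0.36, adjusted p = 0.0345) or 48 h tumor 4 (0.34, adjusted p = 0.0433), and FGFR4 without 48 h tumor 3 (-0.75, adjusted p = 0.0434).

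The genes whose time course most resembled a member's were found among 10424 genes with a mean log2 CPM of at least 3, by the root mean square difference of 6 centred group means. For MET these were ABLIM3 (0.084 on the log2 scale), ITGA6 (0.131) and CLMP (0.134). For IRS1 they were AEN (0.106), AMIGO2 (0.138) and STAMBPL1 (0.182), and for IRS2 they were TRIB2 (0.164), MAP1S (0.168) and RIN1 (0.189). AXL had less close neighbours, BNIP3L (0.212), SEC61G (0.214) and CYB5R2 (0.217). FGFR2 was nearest to ANK3 (0.164), SYNPO (0.220) and PIK3R3 (0.221). The measure is a description over 6 means.

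Other receptor tyrosine kinases were called in both directions. Of 39 tested of 50 listed, 9 rose and 6 fell at 8 h, shares near or below the 20.6% and 23.7% of all genes that rose and fell then, with a median log2 fold change of 0.26 against 0.066 for all genes. EPHA2, an ephrin receptor and itself 1 of the ERK-driven genes, fell most surely, by 4.60 ± 0.30 on the log2 scale at 4 h (adjusted p = 7.66e-10), from 114, 134, 135 and 110 TPM to 4.96, 5.2, 4.48 and 6.57 TPM. EPHB4 fell at 8 h (-0.87 ± 0.13, adjusted p = 1.26e-05). AATK rose at 8 h (2.15 ± 0.27, adjusted p = 2.69e-06) and the kinase-dead EPHA10 at 24 h (2.09 ± 0.23, adjusted p = 3.48e-06). LMTK2 was the most expressed that passed at no time (-0.12 to 0.19). Of 29 tested of 35 ligands and ligand-handling genes, 7 rose and 8 fell at 8 h (median 0.25), near the same 20.6% and 23.7% of all genes, with the heparan sulfate carriers GPC1 up (0.96 ± 0.19, adjusted p = 0.000373) and SDC4 down (-1.31 ± 0.19, adjusted p = 1.01e-05).

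Downstream of the receptors, of 29 tested of 31 adaptors and brakes, 9 fell and 3 rose at 8 h, against 23.7% and 20.6% of all genes, with a median of -0.05 against 0.066 for all genes. ERRFI1, an inhibitor of EGFR-family kinases, fell by 2.93 ± 0.34 on the log2 scale at 4 h (adjusted p = 2.72e-06), and GRB10, an adaptor that restrains the insulin and IGF1 receptors, fell at 8 h (-0.73 ± 0.11, adjusted p = 1.59e-05). SH2B1, an adaptor that enhances insulin receptor signalling, rose at 8 h (1.03 ± 0.15, adjusted p = 9.17e-06) and the ubiquitin ligase CBLC at 24 h (1.43 ± 0.25, adjusted p = 0.000313), while the phosphatase PTPRF passed at no time. Of 27 genes of the PI3K-AKT chain, 8 rose and 6 fell at 8 h (median 0.19), against 20.6% and 23.7% of all genes. PIK3R3, a regulatory subunit of PI3K, rose by 2.32 ± 0.18 at 4 h (adjusted p = 6.62e-09), from 3.88, 5.04, 4.83 and 4.86 TPM with vehicle to 20.0, 18.4, 26.6 and 24.4 TPM. The lipid phosphatase gene INPPL1 rose at 8 h (0.65 ± 0.13, adjusted p = 0.000247), and the catalytic subunit PIK3CB (-1.23 ± 0.19, adjusted p = 2.92e-05) and the transcription factor FOXO1 (-1.18 ± 0.18, adjusted p = 2.06e-05), which AKT inhibits, fell at 8 h. AKT1 passed at no time (-0.13 to 0.14).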

How the data were processed

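RNA of 24 tumors was measured, and groups were read from the sample titles, because the time tag of the IK-595 samples speaks of a vehicle dose. The authors deposited estimated counts and TPM values. Tools listed in the submitters' processing notes were Salmon 0.14.1, FastQC 0.12.1 and bcl2fastq 2.17, with build GRCh38.p13. The sources used here do not give the order of these tools, the annotation, the strand setting or whether mouse reads were removed. Reads from mouse cells could therefore be counted for similar human genes.

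Estimated counts were rounded, filtered by filterByExpr (18242 genes kept, 99.9% of counts), and scaled by TMM. The fit was edgeR's quasi-likelihood model with robust dispersion (edgeR 4.0.16, R 4.3.3), with the 24 tumors in 1 model. Adjusted p values are from edgeR with Benjamini-Hochberg adjustment within each of 10 comparisons and an F test, except where another tool is named. The pipeline was tested on simulated data. Log2 CPM used a prior count of 2. IDs were matched to GENCODE release 29, and 2169 genes with no symbol held 0.0721% of counts. Promoter windows came from RefSeq. Alternatives were DESeq2 1.42.0, limma 3.58.1 (voom, and TPM on a log2 scale), other scalings and filters, the replicate block, a covariate of 14 fibroblast genes, and each tumor left out in turn.

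The members and gene lists were chosen with earlier results of these data known. The text names all members, their closest relatives and ligands, and from each list the genes with the smallest adjusted p that rose or fell and the most expressed one that did not pass. Animals are the replicates, with 4 per group; nothing in the labels pairs the numbers.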

Additional observations from a re-analysis of the deposited data

Results flagged for a closer look

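In 60 groups of 4 tumors (10 members in 6 groups), 1 tumor lay far from the other 3 of its group: IRS2 in 24 h tumor 3 was lowest, at 5.21 log2 CPM. By chance about 1 in 20 such groups would do so.

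The response differed between IK-595 times in 13 cases, each by a test of the difference itself. IRS2 changed by -1.50 on the log2 scale from 2 h to 4 h. From 4 h to 8 h the changes were -1.31 for MET, 0.81 for IRS2 and 0.50 for INSR. From 8 h to 24 h they were 1.59 for IRS1 and 1.21 for MET, and from 24 h to 48 h 1.35 for AXL and 0.86 for MET. From 8 h to 48 h they were 2.07 for MET, 2.02 for IRS1, 0.94 for AXL, 0.76 for IRS2 and 0.53 for DDR1.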

How the results depend on the processing

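Of 33 calls on members, 20 held under all 20 alternative settings run for each, and 0 reversed. DESeq2, RLE scaling and the stricter filter on low counts kept 33 calls. The fit with the mitochondrial genes removed kept 32, the fibroblast covariate and limma-voom 31 each, fits of only the 2 groups compared 29, upper-quartile scaling 28, no filter 26, and log2 TPM 24 with a pseudocount of 1 and 25 with 0.1.

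The number of members called changed as follows; the cause was not tested. At 4 h it was 5, and 3 with either TPM pseudocount. At 24 h it was 3, and 5 with DESeq2 or the fibroblast covariate. At 48 h it was 1, 2 with DESeq2 or only the 2 groups compared, and 0 with upper-quartile scaling, mitochondrial genes removed, no filter or either TPM pseudocount. From 4 h to 8 h it was 3, and 1 with no filter or only the 2 groups compared. From 24 h to 48 h it was 2, and 1 with either TPM pseudocount or only the 2 groups compared. Leaving out 1 tumor gave 2 to 4 calls at 2 h, 0 to 2 at 48 h, 1 to 3 from 4 h to 8 h and 1 to 2 from 24 h to 48 h. FGFR1 at 4 h turned from 0.24, not called, to -0.47, called (adjusted p = 0.0122), with the fibroblast covariate.

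The replicate block kept 27 of 33 calls and left 0 members called at 48 h, against 1 without it. The labels do not say that the numbers pair tumors. Of 60 pairs with the same number, 20 correlated above 0.1 (mean r -0.013, from -0.461 to 0.503). Pairs with unlike numbers were not set beside them, so these values cannot decide whether tumors are paired.

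Calls over all genes moved by over 1.5 times in 6 comparisons: 4 h against vehicle 2761 to 1654 with TPM, 48 h 1821 to 963 without 48 h tumor 2, 4 h against 2 h 2899 to 1003 without 2 h tumor 4, 8 h against 4 h 4948 to 3041 without 8 h tumor 3, 24 h against 8 h 1256 to 355 with only 2 groups and to 2673 without 24 h tumor 1, and 48 h against 24 h 742 to 148 with only 2 groups and to 1772 with the fibroblast covariate. Among calls at 8 h 46.5% were higher, 58.4% with upper-quartile scaling and 27.8% with TPM, where the median of all genes was 0.066, 0.208 and -0.125. The precision is limited by 4 tumors a group, with a median SE of 0.23 on the log2 fold change.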
